A study of Mus musculus with 2 samples.

Results

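The smooth muscle contractile genes *Acta2*, *Tagln*, *Myh11*, *Myl9*, *Mylk*, *Cnn1*, *Des*, *Pln*, *Ppp1r14a* and *Mustn1* were followed through the cell types of the mouse periodontium. These 10 genes, of 31053 in the count tables, were chosen by name and by no cut on a measured value, though earlier results of these data were known. Raw counts were taken from 2 single-cell RNA sequencing (scRNA-seq) libraries of periodontal tissue from wild-type (WT) C57BL/6 mice aged 8 weeks. The control library came from mice without treatment and the other from mice with ligature-induced periodontitis (LIP), in which a thread tied around a molar gathers bacteria and inflames the gum, taken at 7 days after the ligature was placed. Each library pooled cells of 5 mice with no label for the single animal, so there was 1 sample per condition and no measure of the spread between mice. No test of LIP against control was therefore possible, and every difference given here compares these libraries only.

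Smooth muscle cells and pericytes are the mural cells that wrap blood vessels, smooth muscle around arteries, arterioles and larger veins, pericytes around capillaries and the smallest venules. Smooth muscle shortens when calcium and calmodulin activate myosin light chain kinase, which phosphorylates the regulatory light chain of myosin and so lets the motor pull on actin filaments. Much of this gene set is controlled by serum response factor, which binds the CArG box, a motif of CC, then 6 bases that are A or T, then GG. Myofibroblasts are fibroblasts that take up part of the same set, *Acta2* above all, during wound healing and fibrosis.

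By role, *Acta2* encodes the smooth muscle α-actin of the thin filament, *Tagln* the actin-binding protein transgelin and *Cnn1* calponin, which holds back the actin-activated ATPase of myosin. *Myh11* encodes the smooth muscle myosin heavy chain, *Myl9* its regulatory light chain and *Mylk* the kinase of that light chain. *Ppp1r14a* encodes CPI-17, an inhibitor of the phosphatase that reverses the phosphorylation. *Des* encodes desmin, the muscle intermediate filament, *Pln* phospholamban, which restrains the calcium pump of the sarcoplasmic reticulum, and *Mustn1* a small nuclear protein of muscle and skeletal tissue.

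Promoter sequences, 250 bases before to 50 after the gene start, were read from RefSeq (GRCm38.p6) for 8 of the 10 genes. *Tagln* and *Myh11* were not among them. The promoters of *Acta2* (chr19:34255324-34255623, minus strand) and *Myl9* (chr2:156775214-156775513, plus strand) are shown because CArG boxes with at most 1 base off the motif, in capitals, were found in them. The promoter of *Des* (chr1:75360042-75360341, plus strand) is set beside them because *Des* was the member whose levels departed most from the others, and no such box lay in this window. The windows of *Cnn1*, *Mustn1*, *Mylk*, *Pln* and *Ppp1r14a* held no such box either, so its lack was not particular to *Des*.

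*Acta2*: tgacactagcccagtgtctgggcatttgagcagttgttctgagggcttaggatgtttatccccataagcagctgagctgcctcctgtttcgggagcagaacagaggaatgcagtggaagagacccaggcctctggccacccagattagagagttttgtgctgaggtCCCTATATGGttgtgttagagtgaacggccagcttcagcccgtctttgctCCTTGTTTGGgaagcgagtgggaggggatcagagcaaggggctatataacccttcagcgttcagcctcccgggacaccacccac

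*Myl9*: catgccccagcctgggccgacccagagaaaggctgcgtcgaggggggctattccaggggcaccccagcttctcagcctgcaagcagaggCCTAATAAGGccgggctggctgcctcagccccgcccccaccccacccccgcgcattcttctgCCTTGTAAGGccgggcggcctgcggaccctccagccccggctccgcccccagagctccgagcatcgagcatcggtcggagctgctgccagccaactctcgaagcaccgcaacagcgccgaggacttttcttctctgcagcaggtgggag

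*Des*: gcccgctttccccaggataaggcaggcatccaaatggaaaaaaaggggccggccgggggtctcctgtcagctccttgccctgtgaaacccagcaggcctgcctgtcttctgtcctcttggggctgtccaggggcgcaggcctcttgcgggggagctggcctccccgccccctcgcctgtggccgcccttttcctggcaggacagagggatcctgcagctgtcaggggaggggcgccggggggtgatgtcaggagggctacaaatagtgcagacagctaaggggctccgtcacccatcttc

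In *Myl9* the box beginning 161 bases before the start matched the motif in full, and that at 99 bases was 1 base off. Both boxes of *Acta2*, at 84 and 34 bases before the start, were 1 base off. These distances count from the RefSeq start, and GENCODE M21 places the outer start of *Acta2* 217 bases and that of *Myl9* 44 bases earlier, so that both *Acta2* boxes lie after that start. For *Mylk* the window's start lies 39740 bases inside the GENCODE gene. A full match on either strand was found in 1 of the 8 promoters, against 535 of 32851 promoters in all (1.63%), and a match with at most 1 base off in 2 of 8, against 9.98% of all. These matches describe the letters in the window and do not show binding. In the GENCODE M21 annotation of GRCm38, *Acta2* lies at chr19:34241090-34255590 on the minus strand, *Myl9* at chr2:156775420-156781658 and *Des* at chr1:75360329-75368579, both on the plus strand, and all 3 are protein-coding genes. The others are also protein-coding and lie at chr9:45929619-45936058 (*Tagln*, minus), chr16:14194535-14291372 (*Myh11*, minus), chr16:34745210-35002420 (*Mylk*, plus), chr9:22099216-22109630 (*Cnn1*, plus), chr10:53337667-53345987 (*Pln*, plus), chr7:29289308-29293801 (*Ppp1r14a*, plus) and chr14:30879200-30881610 (*Mustn1*, plus). None of the 10 genes overlapped another counted gene on its own strand.

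Barcodes were kept with 200 to 7500 genes, at most 60000 UMIs and at most 10% mitochondrial UMIs, where a UMI (unique molecular identifier) marks 1 captured transcript. This left 883 control cells with a median of 10845 UMIs and 936 LIP cells with a median of 5595. Cells were clustered and named by marker genes, with the 10 contractile genes left out of both steps, so that their levels did not choose the cells. Names end in "-like" because they were rebuilt here. The mural-like cluster held 45 cells in each library and split into smooth muscle-like cells, 27 control and 21 LIP, and pericyte-like cells, 18 control and 24 LIP. Only 2 barcodes were found in both libraries, and both were smooth muscle-like cells in the LIP library.

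The markers fixed for each name are given for these cells as a description. The names were taken from these same lists, so the values are no independent check. The 18 smooth muscle markers summed to 19758 and 23390.1 CPM (UMIs of a gene per 1000000 UMIs of the cells) in control and LIP smooth muscle-like cells against 9029 and 10906 in pericyte-like cells. *Crip1*, which both classes express, made up 63.6% and 68.7% of the sums in smooth muscle-like cells, and without it the other 17 gave 7189 and 7320.1 against 2190.3 and 2226. Higher in smooth muscle-like cells were 18 of the 18 in control, with *Npnt* nearly equal (35.7 against 35.0), and 15 of 18 in LIP. Of these *Rergl* rested on 3 UMIs in control and 1 in LIP. Not higher in LIP were *Actg2* (649.9 against 697), *Casq2* (63.4 against 70.9) and *Npnt* (6.34 against 27.7). *Lmod1*, which encodes leiomodin, gave 695 and 612 CPM against 239 and 139. The 14 pericyte markers, such as *Vtn* and *Steap4*, summed to 1467 and 2077 CPM in smooth muscle-like cells and 6093 and 4285 in pericyte-like cells. *Rgs4* of this list went the other way, at 609 and 669 CPM in smooth muscle-like against 192 and 191 in pericyte-like cells. *Atp13a5* had no UMI in either class, and *Ggt1* had almost none. No smooth muscle marker stood among the 10 leading genes of the smooth muscle-like cells, whose name rested on 11 markers in all, and the leading genes of pericyte-like cells included *Vtn* and *Colec11* but also the matrix genes *Postn* and *Tnc*. *Rgs5*, a mural gene strong in pericytes, was at 973 CPM in control and 5408 in LIP smooth muscle-like cells, where 5 of 21 cells passed 10000, and at 12006 and 12863 in pericyte-like cells. Of 10 skeletal muscle markers 9 were at 0 in smooth muscle-like cells of each library, among them *Acta1*, *Myod1* and *Pax7*.

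The contractile genes were concentrated in the mural-like cells. In the control library 26876 of 30334 UMIs of the 10 genes (88.6%, exact binomial 95% interval 88.2 to 89.0) lay in the 45 mural-like cells, and in the LIP library 23090 of 26049 (88.6%, 88.2 to 89.0). Smooth muscle-like cells alone held 78.5% of them in control and 69.1% in LIP. The 10 genes made up 6.06% of all UMIs of control smooth muscle-like cells and 5.71% of LIP ones. In single control smooth muscle-like cells this share ran from 1.64% through a median of 5.70% to 8.89%, and in LIP from 2.37% through 5.11% to 9.11%. In pericyte-like cells the genes made up 1.79% of UMIs in control, with cells at 0.204% to 4.41% around a median of 1.04%, and 1.57% in LIP, with cells at 0.0573% to 8.12% around a median of 0.961%. The classes thus overlapped: 6 of 18 control and 5 of 24 LIP pericyte-like cells reached the share of the lowest smooth muscle-like cell. Intervals throughout cover counting error only.

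**Figure D1:**
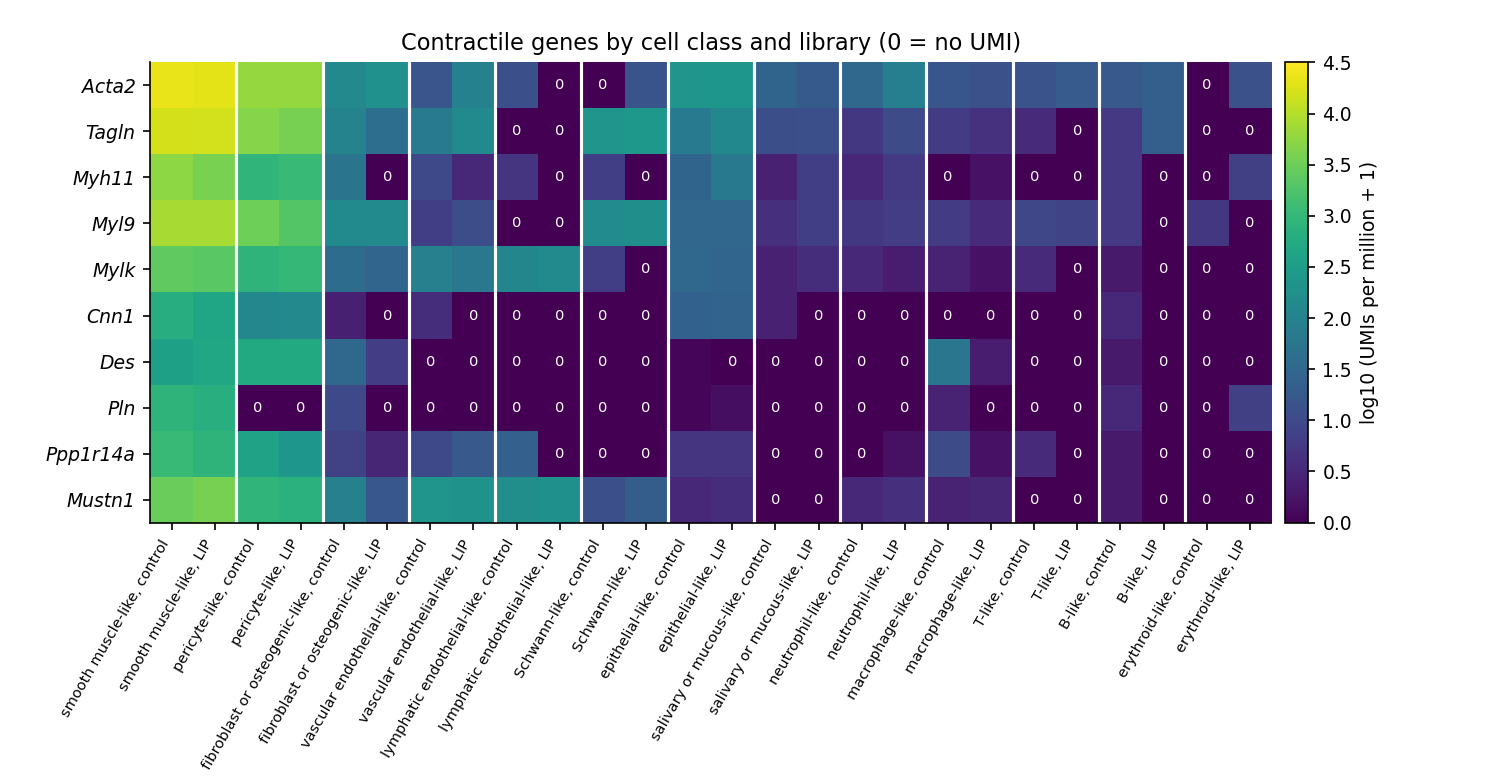
Levels of the 10 contractile genes (rows) in each marker-defined class (columns) of the control and LIP libraries, as log10 of CPM plus 1. Smooth muscle-like and pericyte-like cells hold the high values of every gene except *Pln*, which has no UMI in pericyte-like cells.

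**Figure D2:**
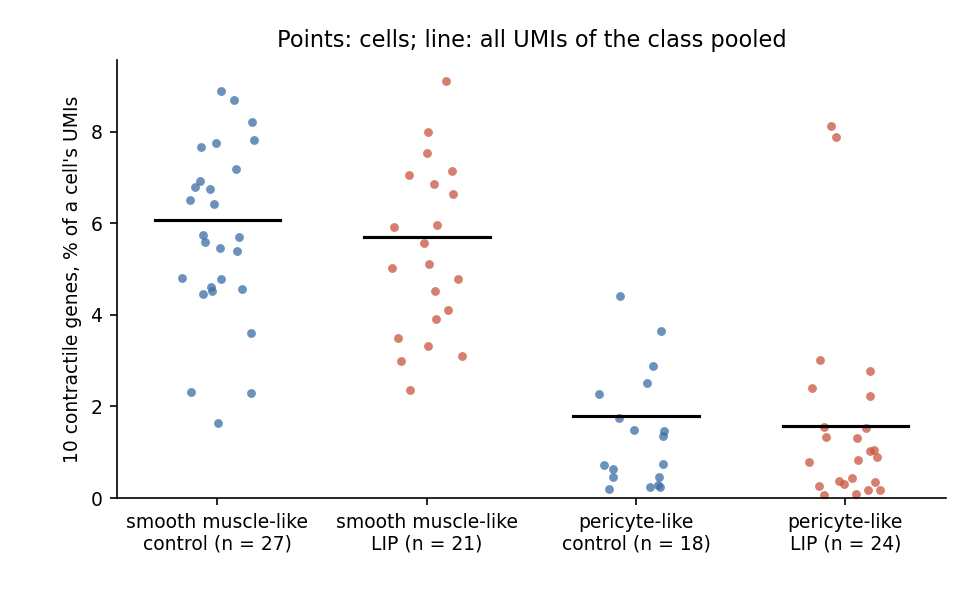
Share of each cell's UMIs that came from the 10 contractile genes, in percent. Each point is 1 cell and the line is the value of the pooled class, 6.06% and 5.71% in control and LIP smooth muscle-like cells against 1.79% and 1.57% in pericyte-like cells, with single cells of both classes overlapping.

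Smooth muscle-like cells carried more of 9 of the 10 genes than pericyte-like cells in both libraries, and *Des* was the exception. Summed, the 10 genes were higher by 1.76 on the log2 scale in control (exact conditional 95% interval 1.71 to 1.82) and by 1.86 in LIP (1.82 to 1.91). A difference of 2-fold or more upward was met by 9 of the 10 genes in each library, while of all genes with at least 50 UMIs over both classes 15.9% of 1751 met it in control and 13% of 2025 in LIP. The sub-names come from other genes of the same cells, so these ratios describe the classes and are no test of them.

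Among the actin-side genes, *Acta2* was found in every smooth muscle-like cell. Control cells ran from 5928 through a median of 20089 to 35097 CPM and LIP cells from 8112 through 19150.4 to 35021. Pericyte-like cells ran from 0 through 3191 to 14629 in control and from 0 through 3494 to 32530.4 in LIP, so the upper pericyte-like cells lay within the smooth muscle-like range. Pooled over cells, *Acta2* stood at 22394 against 6087 CPM in control (log2 ratio 1.88, 1.79 to 1.97) and at 21063 against 6162 in LIP (1.77, 1.70 to 1.85). *Acta2* was at 0 in 3 control and 4 LIP pericyte-like cells, and each of these 7 held UMIs of *Des*. Most cells of the class held *Des*, 14 of 18 in control and 22 of 24 in LIP, so this does not set the 7 apart. *Tagln*, the transgelin gene, followed the same order, with 16275 against 4869.98 CPM in control (1.74, 1.64 to 1.85) and 15411 against 3801 in LIP (2.02, 1.93 to 2.11). *Cnn1* was much sparser. This calponin gene had UMIs in 22 of 27 control and 18 of 21 LIP smooth muscle-like cells but in only 2 of 18 and 6 of 24 pericyte-like cells. Its pooled level was 629 against 122 CPM in control (2.36, 1.72 to 3.08) and 453 against 133 in LIP (1.77, 1.27 to 2.30), and a single control smooth muscle-like cell held 29.96% of its UMIs there.

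The motor genes gave ratios that differed between the libraries. *Myh11*, the heavy chain, was at 5332 against 891 CPM in control (log2 ratio 2.58, 2.34 to 2.83) and 3861 against 1060.4 in LIP (1.86, 1.69 to 2.04). The lowest, median and highest smooth muscle-like cells held 1098, 4058 and 15145 in control and 1172, 3785 and 8978 in LIP, so that the median cells lay closer than the pooled levels. The same control cell that dominated *Cnn1* held 19.0% of the *Myh11* UMIs, and without it the control level was 4629. *Myl9*, the regulatory light chain, showed the opposite shift, with 8199.8 against 3239 CPM in control (1.34, 1.21 to 1.47) and 8297 against 2004 in LIP (2.05, 1.93 to 2.18). Its pooled smooth muscle-like levels differed little between the libraries, and its pooled pericyte-like level was lower in LIP. With equal weight per cell *Myl9* stood at 8056 against 2601 in control and 7960 against 2429 in LIP, so the libraries lay closer. In control 1 pericyte-like cell held 26.1% of the *Myl9* UMIs of the class. *Mylk*, the kinase gene, gave the smallest of the LIP ratios above 0, with 2524 against 856 CPM in control (1.56, 1.31 to 1.82) and 2207 against 996 in LIP (1.15, 0.96 to 1.34). *Ppp1r14a* (CPI-17) stood at 1115 against 384 in control (1.54, 1.16 to 1.93) and 849.6 against 234 in LIP (1.86, 1.49 to 2.25). Its pericyte-like UMIs were found in 9 of 18 control and 17 of 24 LIP cells. A single control cell held 40.9% of those in control, and without it the level was 267 CPM.

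*Pln* separated the classes most cleanly. Phospholamban transcripts were found in 26 of 27 control and 18 of 21 LIP smooth muscle-like cells, with medians of 820.2 and 779.9 CPM and highest cells of 3139 and 2181. In the 18 control and 24 LIP pericyte-like cells there was no *Pln* UMI at all, which allows at most 17.5 and 9.25 CPM by a floor of 3 counts over the class. *Pln* was thus at least 49.3-fold higher in control and at least 73.0-fold higher in LIP smooth muscle-like cells, rank 3 and rank 1 of the genes compared. By the same floor a count of 0 allows a *Pln* UMI in up to 16.7% of control and 12.5% of LIP pericyte-like cells at this depth, which limits the cells with a UMI and not the cells that express the gene. *Mustn1* was at 2936 against 885 CPM in control (1.73, 1.48 to 1.98) and 3759.9 against 746 in LIP (2.33, 2.13 to 2.54), and every smooth muscle-like cell held it.

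*Des* did not follow the other members. Smooth muscle-like cells ran from 0 through a median of 246 to 1138 CPM in control and from 0 through 232 to 1621 in LIP, and pericyte-like cells from 0 through 549 to 2198 and from 0 through 466 to 1967. The ranges overlapped almost wholly, and desmin transcripts were found in 14 of 18 control and 22 of 24 LIP pericyte-like cells against 19 of 27 and 15 of 21 smooth muscle-like cells. Pooled, *Des* was at 362 against 536 in control (log2 ratio -0.57, -0.96 to -0.17) and 498 against 546 in LIP, where the interval held 0 (-0.13, -0.45 to 0.19). With cells of up to 15% mitochondrial UMIs admitted, a setting chosen after seeing the data, the control ratio of *Des* turned to 0.09 with an interval of -0.25 to 0.44.

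Mitochondrial share moved with these classes. Its median was 7.99% and 7.21% in control and LIP smooth muscle-like cells and 5.75% and 5.23% in pericyte-like cells, and only 2 smooth muscle-like cells of each library lay at or below 5%. With that limit the control ratio of the summed genes was -0.20, resting on 2 smooth muscle-like against 5 pericyte-like cells. When cells of up to 15% were clustered anew, the 15 control and 7 LIP smooth muscle-like cells above 10% held 5.86% and 3.82% of their UMIs in contractile genes, and *Pln* stayed at 0 in pericyte-like cells of every mitochondrial range. Median depth also differed, with 13490 and 15146 UMIs in smooth muscle-like and 10131 and 10564.5 in pericyte-like cells. After 1000 UMIs were drawn from each cell, *Acta2* was found in 27 of 27 and 21 of 21 smooth muscle-like cells and 13 of 18 and 18 of 24 pericyte-like cells. The same draw found *Pln* in 13 of 27 and 7 of 21 against 0 and 0.

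**Figure D3:**
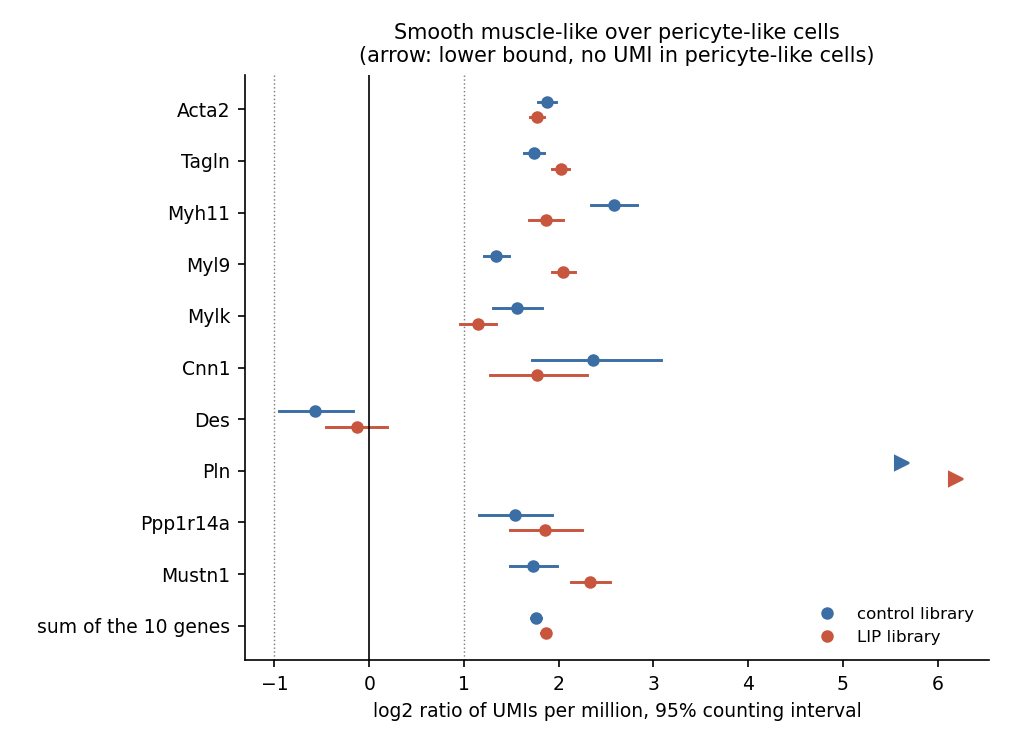
Log2 ratio of smooth muscle-like over pericyte-like cells for each contractile gene and their sum in the control and LIP libraries. Points are ratios of CPM, bars are exact 95% intervals for counting error, and arrows mark the lower bound of *Pln*. Every gene but *Des* lies above 0.

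**Figure D4:**
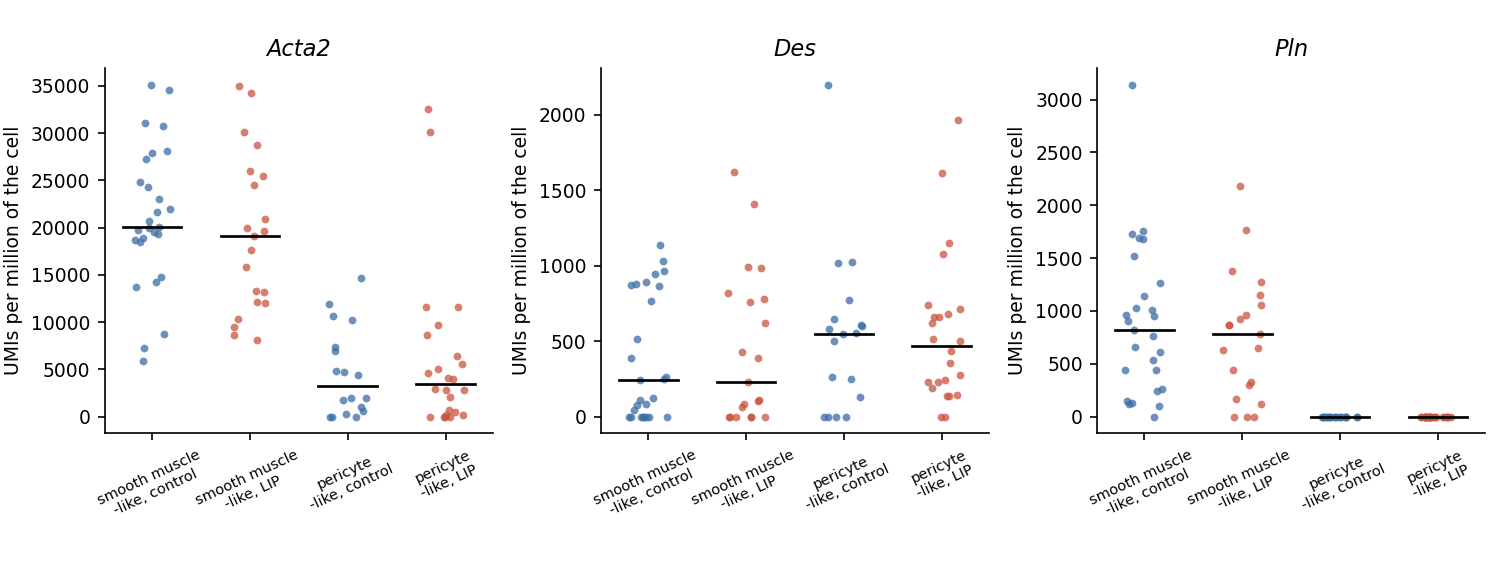
CPM of *Acta2*, *Des* and *Pln* in single smooth muscle-like and pericyte-like cells of each library, with lines at the medians. *Acta2* differs in level with overlap, *Des* overlaps almost wholly, and *Pln* is at 0 in all 42 pericyte-like cells.

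Across single mural-like cells of both classes 9 of the genes varied together, and again *Des* did not. The Spearman correlation of each gene with the sum of the other 9 was computed over the 45 cells of each library, as a description, since these cells share a library and differ in depth and class. *Acta2* gave 0.942 in control and 0.954 in LIP, *Tagln* 0.945 and 0.946, and *Myl9* 0.937 and 0.912. *Myh11*, *Mylk*, *Ppp1r14a*, *Mustn1* and *Cnn1* lay between 0.774 and 0.872 over both libraries. *Pln* gave 0.744 and 0.640, while *Des* gave -0.10 and 0.06. Part of this order followed the split into classes. Within smooth muscle-like cells alone *Acta2* kept 0.777 and 0.819, *Tagln* 0.848 and 0.809, *Ppp1r14a* 0.863 and 0.681 and *Cnn1* 0.598 and 0.743, whereas *Myh11* gave 0.519 and 0.408, *Mylk* 0.481 and 0.5104, *Mustn1* 0.297 and 0.497 and *Pln* 0.162 and 0.199. *Des* gave -0.03 and 0.149 there, so within this class *Pln* was also only weakly correlated. Within pericyte-like cells alone *Acta2* gave 0.950 and 0.913, *Tagln* 0.951 and 0.894, *Myh11* 0.836 and 0.663, *Mylk* 0.690 and 0.761, *Mustn1* 0.578 and 0.762 and *Des* 0.04 and 0.21. Over all mural-like cells the total UMIs of the cell correlated with the summed genes at 0.662 in control and 0.288 in LIP, the mitochondrial share at 0.473 and 0.297, and *Rgs5* at -0.80 and -0.60. The part of depth and mitochondrial share in these values was not tested.

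The genes most like the summed contractile genes over mural-like cells, among 894 with at least 200 UMIs, were *Myl6*, *Tpm2*, *Flna*, *Dstn*, *Csrp1*, *Ckb*, *Ppp1cb*, *Fbxl22*, *Smtn* and *Itga8*. *Myl6*, the essential light chain of myosin, correlated at 0.965 in control and 0.951 in LIP. *Tpm2*, the β-tropomyosin gene, gave 0.9436 and 0.9702, and *Itga8*, an integrin gene and the last of the 10, 0.790 and 0.763. The ranking used the lower of both libraries.

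At full depth all 10 genes were found in 15 of 27 control and 11 of 21 LIP smooth muscle-like cells, with 8 to 10 and 7 to 10 genes per cell. No pericyte-like cell held all 10, since *Pln* was at 0, and they held 4 to 9 genes in control (median 6.5) and 3 to 9 in LIP (median 8.0). These counts depend on depth. After 1000 UMIs were drawn from each cell, the median was 7.0 in smooth muscle-like cells of both libraries, with at most 9 genes, and 4.5 in control and 3.5 in LIP pericyte-like cells.

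The partners of the contractile apparatus were read from lists of genes chosen by role. Beside their counts stand the shares of all genes compared, of which 15.9% were 2-fold or more higher and 11.1% lower in control smooth muscle-like cells, and 13% higher and 11.4% lower in LIP. Of 17 thin filament and cytoskeletal partners, 10 were 2-fold or more higher and 2 lower in control smooth muscle-like than in pericyte-like cells (median log2 ratio 1.38, against 0.01 for all genes compared), and of the 16 with enough UMIs in LIP 8 were higher and 1 lower (0.997, against -0.07). *Tpm2* was at 8284 against 1672 CPM in control (2.31) and 7345 against 1689 in LIP (2.12), and *Smtn*, which encodes smoothelin, gave 3.14 and 2.87. The non-muscle tropomyosin gene *Tpm4* went the other way, at -2.31 and -2.04. In the list of myosin, its phosphatase and its kinases 13 of 16 genes had enough UMIs in each library, with 5 higher and 3 lower in control (median 0.58) and 6 higher and 2 lower in LIP (0.63). *Ppp1r12b*, a targeting subunit of myosin phosphatase, gave 2.39 and 1.71, while *Myh9*, the non-muscle myosin heavy chain, gave -3.49 and -2.26. Of the 12 calcium handling genes 5 could be compared in control, with 3 higher and 0 lower (median 1.03), and 3 in LIP, with 2 higher and 0 lower (1.31). *Atp2a2*, the calcium pump that phospholamban restrains, stood at 840.4 against 169 CPM in control (2.31) and 751 against 302 in LIP (1.31). Of the 14 regulators 8 could be compared, with 3 higher and 1 lower in control (0.45) and 4 higher and 0 lower in LIP (1.22). This list also holds *Klf4*, a repressor of the contractile program. It was at 382 CPM in smooth muscle-like against 594 in pericyte-like cells in control and at 219 against 24.7 in LIP. *Mef2c*, a factor of muscle differentiation, gave 1.59 and 1.54. In contrast, 4 of the 5 matrix genes with enough UMIs, *Col1a1*, *Col3a1*, *Postn* and *Tnc*, were 2-fold or more lower in smooth muscle-like cells of both libraries, with list medians of -4.39 and -2.76.

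Smooth muscle-like cells of the LIP library carried nearly the same summed level of the contractile genes as those of the control library. The log2 ratio of LIP over control was -0.09 (-0.12 to -0.06), none of the 10 genes differed by 2-fold, and 5.31% of the 2146 genes with at least 50 UMIs did in either direction. Their median was 0.06. *Acta2* at -0.09 and *Tagln* at -0.08 lay close to 0, and the interval of *Myl9* held it (0.02, -0.06 to 0.09). Lower in LIP beyond counting error were *Myh11* (-0.47, -0.57 to -0.36), *Cnn1* (-0.47, -0.78 to -0.17), *Ppp1r14a* (-0.39, -0.62 to -0.17), *Pln* (-0.35, -0.60 to -0.10) and *Mylk* (-0.19, -0.34 to -0.05). A single control cell held 29.96% of the *Cnn1* and 19.0% of the *Myh11* UMIs. Without it the control levels were 472 and 4629 CPM, against 453 and 3861 in all LIP cells. Without the richest LIP cell for each gene the LIP levels were 366 and 3573. *Mustn1* was higher (0.36, 0.24 to 0.47), as was *Des* (0.46, 0.12 to 0.80), although with cells of up to 15% mitochondrial UMIs *Des* stood at -0.19. The single cells of both libraries overlapped for each member, and whether such differences exceed the spread between mice cannot be told from 1 library per condition.

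In pericyte-like cells the summed ratio of LIP over control was -0.19 (-0.25 to -0.12). None of the 9 genes with at least 50 UMIs passed 2-fold in pooled counts, while 12.7% of 1595 genes did, around a median of 0.11. Pooled over cells, *Acta2* (0.02, -0.09 to 0.13) and *Des* (0.03, -0.35 to 0.41) were centred near 0. *Myl9* was at 2004 CPM in LIP and 3239 in control (-0.69, -0.86 to -0.53) and *Ppp1r14a* at 234 and 384 (-0.71, -1.21 to -0.22), with *Tagln* at -0.36 (-0.49 to -0.23). With every cell given the same weight the summed ratio was 0.18 in place of -0.19, so its direction depended on the weighting. By the same weighting *Myl9* was at 2429 CPM in LIP and 2601 in control, *Ppp1r14a* at 268 and 269 and *Tagln* at 3626 and 3866. Higher in LIP by this weighting were *Acta2* (6081 and 4626), *Myh11* (1219 and 776), *Mylk* (1098 and 832), *Des* (553 and 538) and *Mustn1* (769.6 and 724). *Cnn1* was also higher, at 193 and 71.3, a log2 ratio of 1.44 and so past 2-fold. It was found in only 6 of 24 LIP and 2 of 18 control cells. The size of these differences thus also depended on the weighting. In control 1 pericyte-like cell held 40.9% of the *Ppp1r14a* UMIs of the class. For all mural-like cells the sum was lower in LIP at -0.40 (-0.43 to -0.37), with 0 of 10 genes past 2-fold against 7.48% of 3677 genes. Smooth muscle-like cells were 27 of the 45 mural-like cells in control and 21 of 45 in LIP. When the limit was 5% mitochondrial UMIs, the ratio was 1.56 in the 2 and 2 smooth muscle-like cells left and 0.25 in mural-like cells.

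**Figure D5:**
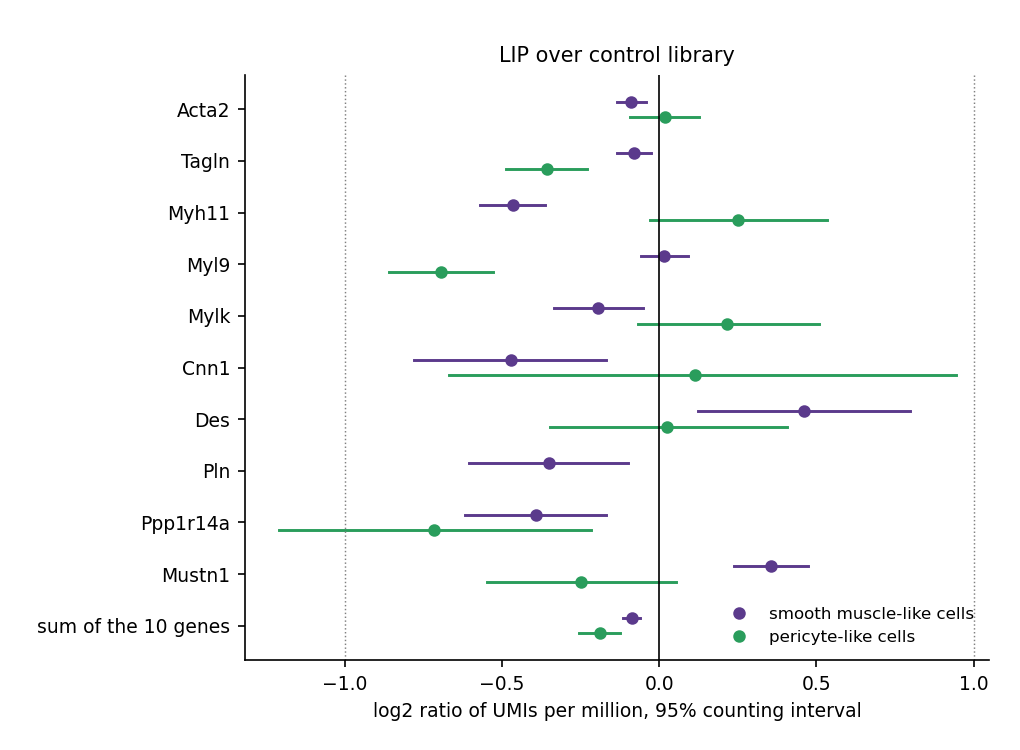
Log2 ratio of LIP over control for each contractile gene and their sum in smooth muscle-like and pericyte-like cells. Points are ratios of CPM and bars exact 95% intervals for counting error between 1 library of each condition. No point reaches 1 in either direction, and *Pln* has no value in pericyte-like cells.

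Among the other lists, the genes induced by stress on dissociation, such as *Fos*, *Jun* and *Atf3*, summed to 23102 CPM in control and 10696 in LIP smooth muscle-like cells, and to 16952 and 3317 in pericyte-like cells. Of the 11 stress genes compared, 4 were 2-fold or more lower in LIP smooth muscle-like cells (median -0.80) and 9 in pericyte-like cells (-2.30), where 5.31% and 12.7% of all genes passed 2-fold in either direction. Within LIP 6 of 10 stress genes were 2-fold or more higher in smooth muscle-like than in pericyte-like cells (median 1.83, against 1.86 for the contractile genes). Within control 2 of 11 were higher and 1 lower (0.47, against 1.74). Of all genes compared 13% were higher in LIP and 15.9% in control. Over single mural-like cells the summed stress genes correlated with the contractile genes at 0.275 in control and 0.215 in LIP, and their part in the contractile values was not tested. Between LIP and control smooth muscle-like cells 1 of 17 thin filament partners (*Cnn3*, 1.22) and 0 of 12 myosin, 0 of 8 calcium and 0 of 10 regulator genes passed 2-fold, with medians of -0.15, -0.13, -0.21 and -0.30 against -0.14 for the contractile genes. In pericyte-like cells 0 of 13 thin filament and 0 of 13 myosin genes did (medians -0.05 and -0.22), along with 1 of 3 calcium genes (*Cav1*, -1.12) and 3 of 7 regulators. These were *Klf4* (-4.59), a repressor of the contractile program, *Zfp36* (-1.94) and *Hes1* (-1.29), and the list median was -0.87. Whether these 3 genes act on the contractile genes in these cells was not tested. *Klf4* rested on 102 control UMIs in 8 cells, 49 of them in 1 cell, and 8 LIP UMIs in 4 cells. Of the 10 matrix genes only 3 could be compared in smooth muscle-like cells, and 2 of them were 2-fold or more higher in LIP (*Col3a1*, 1.70, and *Fn1*, 1.42). In pericyte-like cells 2 of 5 were (*Fn1*, 3.29, and *Tnc*, 1.11), and *Fn1* rested there on 9 control UMIs, 7 of them in 1 cell, and 166 LIP UMIs, 51 of them in 1 cell.

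At the ends of the ranking in smooth muscle-like cells stood *Cxcl10*, *Dmp1*, *Cxcl9*, *Iigp1* and *Tmem176a*, higher in LIP, and *Igkc*, *Cd74*, *Ptgis*, *Fosb* and *Sox6*, lower. Several of these came from single cells, since 300 of the 301 LIP UMIs of *Cxcl10* and 135 of the 141 control UMIs of *Cd74* each lay in 1 cell. In pericyte-like cells the highest included *Cspg4*, *Col15a1*, *Mbp* and *Timp1*, and the lowest were *Cxcl10*, *Socs1*, *Klf4*, *Atf3* and *Gadd45g*. The Schwann cell gene *Mbp* had 75 of its 78 UMIs in 1 LIP cell, and *Cxcl10* had 224 of its 248 in 1 control cell. The proteoglycan gene *Cspg4*, a mural marker, was found in 13 of 24 LIP and 2 of 18 control pericyte-like cells. In smooth muscle-like cells *Cspg4* was at 255 CPM in control, against 11.7 in pericyte-like cells, and at 288 against 277 in LIP. For all mural-like cells the upper end included *Dmp1*, *Mbp*, *Cxcl9* and *Col15a1*, and the lower end was *Igkc*, *Cd74*, *Cd52*, *Tnfaip6* and *H2-Eb1*, where a single control cell held 47 of 50 UMIs of *Cd52* and a single control cell 43 of 48 of *H2-Eb1*.

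Outside the mural-like cells the level of *Acta2* fell steeply. In control it went from 6087 CPM in pericyte-like cells to 217 in epithelial-like and 129 in fibroblast or osteogenic-like cells, and in LIP from 6162 to 226 and 187, where the last 2 intervals overlapped. The epithelial-like UMIs came largely from 3 cells, 2 control and 1 LIP, in which the contractile genes took 5.15%, 4.82% and 5.93% of all UMIs, within the range of smooth muscle-like cells. These cells held 548, 386 and 409 UMIs of *Acta2*, 76, 59 and 135 of *Myh11* and 65, 50 and 55 of *Cnn1*. They held 71, 32 and 31 UMIs of *Krt14*, a keratin of basal epithelium, and also *Krt5*, *Krt17* and *Trp63*, a combination known from myoepithelial cells, which squeeze glands. *Des*, *Pln* and *Mustn1* were at 0 in all 3, as was *Oxtr*, and Scrublet marked none of them as a doublet.

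No myofibroblast class was among the names, and the contractile genes were left out of the clustering. Whether myofibroblasts form a separate group was therefore not tested. Pericyte-like cells held matrix transcripts beside *Acta2*, with *Col3a1* at 4899 CPM in control (18 of 18 cells) and 5166 in LIP (24 of 24 cells). After 1000 UMIs were drawn per cell, UMIs of at least 2 contractile genes were found in 5 of 120 control fibroblast or osteogenic-like cells (4.17%, Clopper-Pearson 95% interval 1.37 to 9.46) and in 4 of 62 LIP ones (6.45%, 1.79 to 15.7), against 0 of 152 and 0 of 19 B-like cells. Shares of the same order were found in vascular endothelial-like cells, with 3 of 44 control (6.82%) and 4 of 77 LIP (5.19%), and in LIP Schwann-like cells, with 6 of 88 (6.82%), so this mark does not set the fibroblast or osteogenic-like class apart. With 2000 UMIs drawn the fibroblast or osteogenic-like counts were 9 of 116 and 6 of 62. The 10 myofibroblast matrix genes summed to 16236 CPM in the control cells that met this mark and 28478 in the others, and to 45032 and 64918 in LIP. With 2000 drawn the control order turned, at 30887 and 27655, while the LIP one did not, at 41335 and 65700. Such cells are a range cut from counts and not a cell type. The LIP fibroblast or osteogenic-like cells held 274 *Acta2* UMIs in 23 of 62 cells and no UMI of *Myh11*, *Cnn1* or *Pln*. Of these UMIs 103 and 92 lay in 2 cells, which also held 62 and 37 of *Myl9*, 8 and 12 of *Tagln*, 1390 and 646 of *Col1a1* and 84 and 52 of *Postn*. Both cells lay in the same sub-cluster, where *Acta2* was at 263 CPM in LIP (13 of 39 cells) and 8.37 in control (3 of 30 cells). In the other sub-cluster it was at 36.6 in LIP (10 of 23 cells) and 171 in control (12 of 92 cells). In the control class a single cell held 157 of the 177 *Acta2* UMIs, with 71 of *Myh11*, 12 of *Pln* and 19 of *Lmod1* beside 96 of *Col1a1*. Without drawing, *Myl9* was found in 54 of 122 control and 36 of 62 LIP cells of the class and *Mustn1* in 38 and 14.

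Other classes held parts of the set only. Schwann-like cells had *Tagln* at 224 CPM in control (14 of 37 cells) and 252 in LIP (46 of 102 cells) and *Myl9* at 149 and 174, with 0 and 6 UMIs of *Acta2*. This placed them next after pericyte-like cells for *Tagln* in both libraries, with intervals apart from the next class. Most of it lay in 1 of their sub-clusters, with *Tagln* at 452 and 366 against 21.7 and 75.6 CPM in the other. After drawing 1000 UMIs, *Tagln* was found in 6 of 36 control and 17 of 88 LIP Schwann-like cells, and in 0 of 152 and 0 of 19 B-like cells. Vascular endothelial-like cells held *Mustn1* at 223 and 206 and *Mylk* at 89.8 and 62.2 CPM, and lymphatic endothelial-like cells *Mustn1* at 166 and 179 and *Mylk* at 117 and 143, with intervals that overlapped between both endothelial classes. The 35 *Des* UMIs of control macrophage-like cells lay in 3 cells, 30 of them in 1.

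Low counts of *Acta2* were also met in immune-like cells. LIP neutrophil-like cells held 142 UMIs of *Acta2* in 83 of 321 cells and 16 of *Tagln*, and *Acta2* was 89.9% of both (84.1 to 94.1), against 58.6% (57.8 to 59.4) in LIP mural-like cells. This share was also high in control neutrophil-like (88.2%) and LIP fibroblast or osteogenic-like cells (82.0%), and low in LIP Schwann-like cells (5.17%). *Acta2* was at 87.6 CPM in LIP neutrophil-like cells, at 32.1 in control ones and at 17.1 and 21.7 in control and LIP B-like cells. After drawing 1000 UMIs it was found in 30 of 312 LIP (9.62%) and 3 of 53 control (5.66%) neutrophil-like cells and in 5 of 152 control (3.29%) and 0 of 19 LIP B-like cells. Median depths were 3881 UMIs in LIP and 6494 in control neutrophil-like cells and 4761 and 4386 in B-like cells. The source of these UMIs was not tested. Among the unnamed cells a single LIP cell with 49604 UMIs held 195 of *Acta2* and 261 of *Rgs5*, together with the cell cycle genes *Top2a* (29) and *Mki67* (18). The same cell held the matrix genes *Col1a1* (248), *Col3a1* (171) and *Postn* (72).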

How the data were processed

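Both libraries were made from live cells of periodontal tissue using droplet capture of transcript 3′ ends (10x Genomics, v3 chemistry) and sequenced on an Illumina HiSeq instrument. The authors aligned reads to mm10 with Cell Ranger (3.1.0 in the matrix header) and the deposited values are whole UMI counts, not normalized, of each gene in each barcode.

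Cells were log-normalized, integrated and clustered in Seurat 5.3.0 (R 4.3.3) on 2000 variable features, 30 dimensions and resolution 0.1, and clusters of at least 60 cells again at 0.2. A marker counted when found in at least 25% of a cluster's cells and more than 2-fold above the remaining cells (10 CPM added). A class needed 3 markers and was taken by the most markers among the 10 leading genes, with ties and clusters without one decided by markers in all. Clusters with a median depth under 0.333 of their library's also needed a leading marker. Mural-like cells were clustered again on 10 dimensions at 0.5. Scrublet (scanpy 1.11.5) marked 4 control (0.453%) and 1 LIP (0.107%) barcodes, which were kept, and none was mural-like.

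Levels are CPM of the UMIs summed over the cells of a class, with exact Poisson, Clopper-Pearson or conditional 95% intervals (Python 3.11.15, numpy 2.4.6, scipy 1.17.1, pandas 2.3.3, matplotlib 3.10.9). Ratios were read for genes with at least 50 UMIs over both groups. Likeness used log2(CPM + 100). Ratios and their intervals were checked on simulated Poisson counts without spread between cells, so this check covers counting error only. With a single library per condition no p-value was computed. The genes named are the 10 members, lists by role, the 5 highest and 5 lowest ratios of LIP over control and the 10 genes most like the summed members. Among the highest ratios 1 gene is not reported here. *Rgs5*, the single cells and the sub-clusters described were picked after their values were seen. Members and lists were chosen with earlier results of these data known.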

Additional observations from a re-analysis of the deposited data

How the results depend on the processing

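Values were recomputed under 13 alternatives and 3 more chosen after seeing the data, except that 3 settings (median-ratio scaling, members left out of the denominator and equal weight per cell) cannot alter shares of UMIs or counts of positive cells, and 2 *Des* ratios gave no value at 5% mitochondrial UMIs. No paired analysis was possible because each condition has 1 library. Of 164 recomputed main values 125 were within counting error or 1.5 times, 35 moved further and 4 reversed. Of 750 other recomputed values 617 stayed the same by this rule, 117 moved further and 16 reversed. In log2 ratios, the summed genes in smooth muscle-like over pericyte-like cells stood at -0.20 in control (with 1 gene 2-fold or more higher) under a limit of 5% mitochondrial UMIs, a setting with 2 smooth muscle-like cells per library, where *Acta2* was -0.39, *Tagln* -0.35, *Myl9* -0.55 and *Ppp1r14a* -0.42. There LIP over control was 1.56 in smooth muscle-like cells (*Acta2* 1.95, *Tagln* 1.66, *Mylk* 0.72, *Pln* 3.33, *Ppp1r14a* 0.85), -0.53 in pericyte-like and 0.25 in mural-like cells (*Acta2* 0.51, *Tagln* 0.26, *Mylk* 0.10, *Pln* 3.50), the mural-like shares were 59.4% and 70.6%, and 3 control fibroblast or osteogenic-like cells were positive. The cause was not tested. Up to 15%, *Des* was 0.086 in control smooth muscle-like over pericyte-like cells and -0.19 (smooth muscle-like) and -0.043 (mural-like) in LIP over control, and the sums were 1.76 (LIP, smooth muscle-like over pericyte-like), -0.22 and -0.47 with shares of 91.6% and 89.4%. With equal weight per cell smooth muscle-like over pericyte-like cells gave 2.01 and 1.72, and LIP over control 0.18 in pericyte-like and -0.26 in mural-like cells. Median-ratio scaling gave 1.96 (control), -0.17 and -0.46, and members left out of the denominator 1.83 and 1.93. Without Scrublet-marked barcodes the control ratio was 1.69 and 3 cells were positive, and thinning to 2000 UMIs found 9. Resolution 1.0 within mural-like cells gave 2.29 in LIP and -0.63 for LIP over control in pericyte-like cells. In smooth muscle-like cells LIP over control was -0.16 with 15 dimensions and with merged libraries. In mural-like cells it was -0.36 with 15 dimensions and with the members among the variable features, and the control share was 90.2% in both. Without the richest cell of each group the control ratio was 1.89 and LIP over control -0.12 and -0.11 in smooth muscle-like and pericyte-like cells. Without shared barcodes it was -0.13 (smooth muscle-like) and -0.49 (mural-like), and the LIP share 87.3%. The 9 re-clusterings kept all 90 mural-like cells and 87 to 90 sub-names. For *Cnn1* in pericyte-like cells LIP over control ran from -1.69 to 1.44 over the settings. Pooling of mice, depth and 18 to 27 cells per class limit these values.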
